A study of Mus musculus with 12 samples.

Results

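The genes of the IL-6, LIF, IL-10 and STAT3 axis were read in the dendritic cell (DC) line Sp37A3 as 10 rows of the gene count table, out of 55401 genes in all. They comprise 4 cytokines (Il6, Lif, Osm and Il10), 3 receptor chains (Il6ra, Il6st and Il10ra), the transcription factor Stat3, and the feedback inhibitors Socs1 and Socs3. They were listed by gene name, with earlier results of these data known. Sp37A3 is a DC line from mouse spleen, and both of its derivatives were grown with murine GM-CSF and M-CSF. CtrV cells carry an empty vector and express Siglec-E, whereas EKO cells were edited at Siglece with CRISPR-Cas9 and are a pool of several clones. Cells of both lines were either left unpulsed or given ovalbumin protein (OVA), and all of them, controls included, were stimulated with LPS and processed over 24 h, according to the sample labels. For the RNA sequencing the study's methods describe OVA-pulsed cells alone, so the treatment of the unpulsed groups rests on the labels. RNA sequencing of 3 libraries in each of the 4 groups gave 12 libraries. In bulk RNA, fewer cells that express a gene and less RNA of it per cell cannot be told apart, and since the labels do not say how replicates were made, p-values measure only the spread between these libraries, which may be technical.

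IL-6, LIF and oncostatin M belong to the cytokine family that signals through the shared receptor chain gp130, encoded by Il6st. A ligand-specific chain, such as the IL-6 receptor of Il6ra or the LIF receptor of Lifr, brings the cytokine to gp130, and Janus kinases bound to the receptor then phosphorylate STAT3. IL-10 uses a different receptor, with the ligand-binding chain of Il10ra and the shared chain of Il10rb, but also acts through STAT3. Phosphorylated STAT3 enters the nucleus and drives, among others, Socs3, whose protein binds gp130 and ends IL-6 signalling while leaving the IL-10 receptor untouched. In DCs, LPS induces IL-6, and IL-10 restrains maturation and cytokine release.

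Total counts per library were between 27116201 and 39698572. Levels are given as CPM, the counts of a gene scaled by edgeR to a common library total after TMM normalization. The detection limit was set at 3 counts, equal to 0.0785 to 0.110 CPM depending on the library, and takes in counting error alone. The targeted gene Siglece had between 150.2 and 163 CPM in CtrV libraries and between 166 and 235 CPM in libraries labelled EKO. Its mRNA was thus not lower but higher there. The log2 fold change was 0.31 with OVA (adjusted p = 0.0106) and 0.41 without (adjusted p = 0.00261, edgeR's quasi-likelihood test). An edit that disrupts the protein need not lower the mRNA, and this level therefore does not check the label. All 8 DC markers examined, Itgax, Zbtb46, Irf8 and H2-Ab1 among them, were above 1 CPM in at least 2 libraries, as were all 6 macrophage markers. The 6 neutrophil, 6 T cell and 6 fibroblast markers did not reach 1 CPM in 2 libraries. The macrophage markers summed to between 1290 and 1464 CPM in CtrV and between 1664 and 1792 CPM in EKO-labelled libraries. At the threshold used below, 4 of these 6 were higher in EKO-labelled cells and 0 lower, with and without OVA. Adgre1 overlapped between the lines, with 594 to 703 CPM in CtrV and 597 to 687 CPM in EKO-labelled libraries. The DC markers differed as well, with 5 of 8 higher and 1 lower with OVA, and 4 higher and 1 lower without. Irf8, for example, had 80.1 to 118 CPM in CtrV and 178 to 295 CPM in EKO-labelled libraries. The part of these differences in the results below was not tested. Of 6 B cell and 6 NK cell markers, Ighm and Klre1 were above 1 CPM in at least 2 libraries and the other 5 of each were not. Ighm, the IgM heavy chain gene, had 112 to 158 CPM in CtrV and 135 to 327 CPM in EKO-labelled libraries, and its log2 fold change was 0.90 without OVA (adjusted p = 0.00772) and 0.40 with OVA (adjusted p = 0.162, edgeR's quasi-likelihood test). Klre1, an NK cell receptor gene, had 0.995 to 1.96 CPM in CtrV and 0.513 to 1.101 CPM in EKO-labelled libraries, with values of -0.92 without OVA (adjusted p = 0.00737) and -0.35 with OVA (adjusted p = 0.233, edgeR's quasi-likelihood test). The part of either gene's source in the results below was not tested. Several libraries stood apart from others of their group, replicate 1 of the EKO-labelled cells by the widest margin. Its counts differed from those of replicates 2 and 3 of its group by a chi-square of 26.2 to 45.3 per degree of freedom, against 7.52 and 11.9 between replicates 2 and 3, so its values are given separately where they matter. In unpulsed CtrV cells replicate 3 differed from replicates 1 and 2 by 25.4 and 23.4, against 4.86 between these, and in OVA-pulsed CtrV cells replicate 1 differed from replicates 2 and 3 by 14.5 and 21.3, against 7.98 between these.

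Sequence upstream of the start site, a stretch in which factors downstream of LPS and cytokine receptors bind, was read for the 7 of the 10 members with a RefSeq start (GRCm38.p6). The 250 bases before the start were searched on both strands for the letters of 5 motifs, STAT (TTCNNNGAA), NF-kB (GGGA and TTTCC with any base between), C/EBP (TTGCNNAA), AP-1 (TGANTCA) and the interferon-stimulated response element ISRE (GAAA and GAAA with any 2 bases between). Il6, Lif and Socs1, whose levels differed between the lines, are shown from 5′ to 3′ on the strand of the gene, from chr5:30012864-30013113 (plus strand), chr11:4257318-4257567 (plus strand) and chr16:10785537-10785786 (minus strand), with motif matches in capitals.
Il6: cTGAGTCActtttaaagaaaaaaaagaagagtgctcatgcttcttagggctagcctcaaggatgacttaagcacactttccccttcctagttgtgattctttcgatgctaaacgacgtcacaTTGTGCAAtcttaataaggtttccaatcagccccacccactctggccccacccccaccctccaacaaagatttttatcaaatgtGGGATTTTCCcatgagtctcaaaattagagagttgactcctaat
Lif: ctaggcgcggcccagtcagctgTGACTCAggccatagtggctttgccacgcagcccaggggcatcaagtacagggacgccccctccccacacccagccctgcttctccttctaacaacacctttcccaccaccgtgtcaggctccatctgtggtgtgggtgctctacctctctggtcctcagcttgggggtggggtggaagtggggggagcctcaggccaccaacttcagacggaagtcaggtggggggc
Socs1: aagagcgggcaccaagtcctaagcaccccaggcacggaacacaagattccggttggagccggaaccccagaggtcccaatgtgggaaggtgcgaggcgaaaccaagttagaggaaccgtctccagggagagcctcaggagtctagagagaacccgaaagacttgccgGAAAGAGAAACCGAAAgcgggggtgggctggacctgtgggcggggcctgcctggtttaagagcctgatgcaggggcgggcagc
The Il6 sequence held 3 matches, the AP-1 letters TGAGTCA at bases -249 to -243 from the start, TTGTGCAA, which reads as the C/EBP letters on the other strand, at -128 to -121, and the NF-kB letters GGGATTTTCC at -44 to -35. The Lif sequence held the AP-1 letters TGACTCA at -228 to -222 and no match to the other motifs. The Socs1 sequence held 2 ISRE matches that overlap each other, at -83 to -74 and at -77 to -68. For Socs3, whose window lies inside the longer GENCODE gene and is not shown, the STAT letters TTCTTAGAA were found at -154 to -146. The windows of Il6ra, Il6st and Stat3 held no match to these letters. Among 32851 promoters of the same length, 0.356% held the NF-kB letters, 2.98% the ISRE letters, 6.75% the AP-1 letters, 7.02% the STAT letters and 9.56% the C/EBP letters. A match is a string of letters and was not tested as a binding site, and apart from the ISRE pair no matches overlap in the windows shown.

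The first question was which of these genes differed between EKO-labelled and CtrV cells under the same stimulus. In OVA-pulsed cells, 8 of the 10 members passed the filter on low counts and were tested, and 6 of the 8 differed (adjusted p under 0.05 by edgeR's quasi-likelihood test). Il6, Socs3, Stat3, Il10ra and Socs1 were higher in EKO-labelled cells and Lif was lower, while Il6ra and Il6st did not pass the test. In the same comparison 47% of all 14079 tested genes passed, with 25.1% higher and 21.9% lower, so passing the test was common among all genes. In 4 members that were higher and in Lif the libraries of the lines did not overlap, against 27% and 25.9% of all tested genes without overlap in these directions. In unpulsed cells the 6 members passed in the directions they had in OVA-pulsed cells, 5 higher and 1 lower, against 46.4% of all tested genes (24.5% higher and 21.9% lower). None of these 6 overlapped between the lines, where 24.1% of all tested genes were higher and 22.9% lower without overlap. The median log2 fold change of the tested members was 0.53 with OVA and 0.39 without, against 0.000645 and 0.000132 over all tested genes. Osm and Il10 did not pass the filter, and Lif passed it through the CtrV libraries alone.

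**Figure D1:**
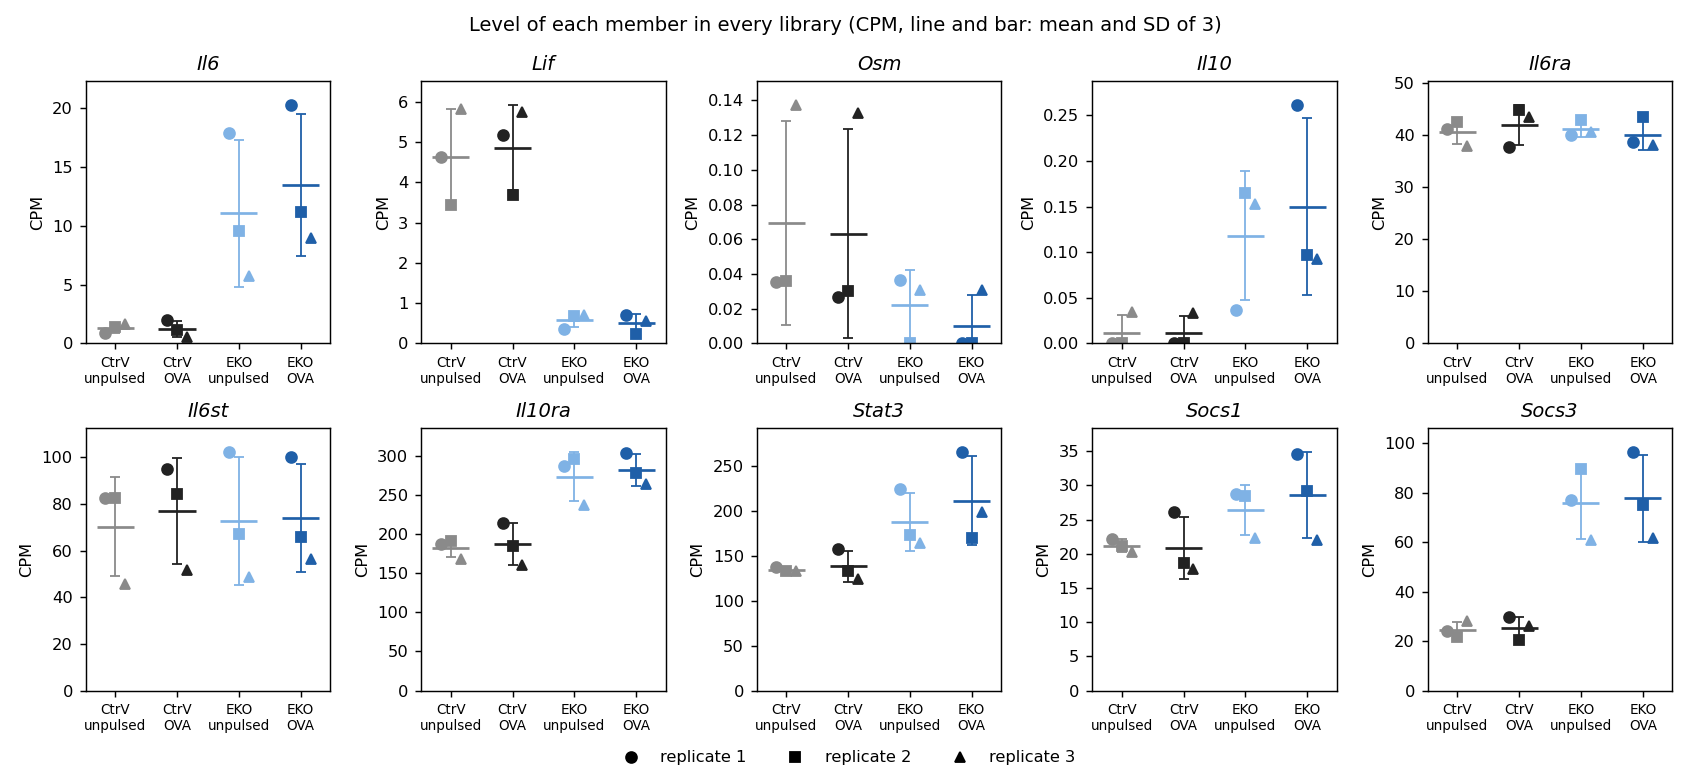
Level of each of the 10 genes in CPM on the vertical axis in the 4 groups, 1 point per library, with the marker shape giving the replicate number and the line and bar the mean and SD of 3 libraries; every axis starts at 0 and has its own scale. Il6, Il10ra, Stat3 and Socs3 lie higher in all EKO-labelled libraries and Lif lower, Il6ra is level across the groups, and replicate 3 is the lowest Il6st library of every group.

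Among the ligands, Il6 (ENSMUSG00000025746; chromosome 5, 30013114 to 30019981, plus strand, GRCm38) encodes the family's main inflammatory cytokine. It had 0.881, 1.40 and 1.68 CPM in unpulsed and 1.97, 1.18 and 0.564 CPM in OVA-pulsed CtrV libraries. In EKO-labelled cells it had 17.9, 9.54 and 5.69 CPM without and 20.3, 11.1 and 8.95 CPM with OVA. Every EKO-labelled library was above every CtrV library, and replicate 1 was the highest of its group in both EKO-labelled groups. The counts behind these values were 17 to 73 in CtrV and 186 to 775 in EKO-labelled libraries. The log2 fold change was 3.43 ± 0.31 (SE) in OVA-pulsed cells, 10.8-fold higher (adjusted p = 8.14e-06), and 2.95 ± 0.32 in unpulsed cells, 7.71-fold higher (adjusted p = 3.65e-05, edgeR's quasi-likelihood test). Without replicate 1 of the EKO-labelled cells, left out after the values had been seen, the log2 fold changes were 3.12 and 2.60. The unpulsed value moved most with single libraries, to 2.32 without replicate 1 of unpulsed CtrV cells and to 3.49 without their replicate 3, and to 2.27 or 3.54 when replicate 1 or 3 was left out of all groups.

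Lif (ENSMUSG00000034394; chromosome 11, 4257557 to 4272514, plus strand), which encodes leukemia inhibitory factor, went the opposite way. It had 4.62, 3.44 and 5.81 CPM in unpulsed and 5.16, 3.69 and 5.74 CPM in OVA-pulsed CtrV libraries. The EKO-labelled libraries had 0.367, 0.693 and 0.703 CPM without and 0.706, 0.225 and 0.553 CPM with OVA. The lines did not overlap, and the highest EKO-labelled library was well below the lowest CtrV library. The log2 fold change was -3.26 ± 0.24 with OVA, 9.57-fold lower (adjusted p = 1.72e-06), and -2.94 ± 0.24 without, 7.66-fold lower (adjusted p = 4.61e-06, edgeR's quasi-likelihood test). The EKO-labelled levels rest on 7 to 27 counts per library. All of them lie below the limit of the filter on low counts. Lif thus passed the filter through the CtrV libraries alone, and only a fall could be called.

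Osm (ENSMUSG00000058755; chromosome 11, 4236420 to 4241026, plus strand), the oncostatin M gene, lies 16530 bases from Lif. It had 6 counts over the 3 unpulsed and 6 over the 3 OVA-pulsed CtrV libraries, and 2 and 1 counts over the corresponding EKO-labelled libraries. No library had more than 4 counts, so that no difference was detectable at this depth (exact permutation test of CPM, two-sided, p = 0.3 in both comparisons, where 0.1 is the smallest p that 3 against 3 allows). Unlike the neighbouring Lif, Osm was thus near the limit of detection in both lines.

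Il10 (ENSMUSG00000016529; chromosome 1, 131019845 to 131024974, plus strand), which encodes the anti-inflammatory cytokine IL-10, was also near that limit. The CtrV libraries had 0, 0 and 1 counts without and 0, 0 and 1 with OVA, and the EKO-labelled libraries had 1, 5 and 5 without and 10, 3 and 3 with OVA. Over the 3 libraries, 16 counts with OVA in EKO-labelled cells against 1 in CtrV cells gave a ratio of 15.8 after scaling to the library totals (95% exact interval 2.45 to 661, counting error only). Without OVA, 11 against 1 gave a ratio of 10.4 (1.51 to 448). The ratio with OVA was 9.46 without replicate 1 of the EKO-labelled cells and 9.94 without replicate 1 of the CtrV cells. An exact permutation test of CPM gave p = 0.1 in both comparisons, the smallest p that 3 against 3 allows. When no filter was applied and 28881 genes were tested, Il10 passed with OVA (log2 fold change 3.49 ± 1.19, adjusted p = 0.0342) and did not without (3.01 ± 1.30, adjusted p = 0.112, edgeR's quasi-likelihood test).

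Among the receptor chains, those for IL-6 were level between the lines. Il6ra (ENSMUSG00000027947; chromosome 3, 89864059 to 89913196, minus strand) encodes the chain that binds IL-6. It had 41.2, 42.6 and 38.0 CPM in unpulsed CtrV, 37.7, 44.9 and 43.5 CPM in OVA-pulsed CtrV, 40.1, 43.0 and 40.6 CPM in unpulsed EKO-labelled and 38.7, 43.5 and 38.1 CPM in OVA-pulsed EKO-labelled libraries. All 4 groups overlapped. The log2 fold change between the lines was -0.07 (95% interval -0.20 to 0.06, adjusted p = 0.379) with OVA and 0.02 (-0.11 to 0.16, adjusted p = 0.79, edgeR's quasi-likelihood test) without. Of its exon bases, 2.8% also belong to the gene model Gm42809 on the other strand, and the use of strand in counting is not stated.

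Il6st (ENSMUSG00000021756; chromosome 13, 112464070 to 112510086, plus strand), the gp130 gene, had 82.6, 82.5 and 45.6 CPM in unpulsed and 95.1, 84.3 and 51.5 CPM in OVA-pulsed CtrV libraries. In EKO-labelled cells it had 102, 67.1 and 48.6 CPM without and 100.2, 65.7 and 56.2 CPM with OVA. Replicate 3 was the lowest library of each of the 4 groups, between 45.6 and 56.2 CPM, and replicates 1 and 2 lay between 65.7 and 102 CPM, so the level followed the replicate number and not the line. The fold change was -0.05 on the log2 scale with OVA (95% interval -0.30 to 0.21, adjusted p = 0.76) and 0.03 without (-0.23 to 0.29, adjusted p = 0.852, edgeR's quasi-likelihood test). On the linear scale these intervals run from 0.811 to 1.15 and from 0.854 to 1.22 times the CtrV level.

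The chain for IL-10 differed. Il10ra (ENSMUSG00000032089; chromosome 9, 45253837 to 45269149, minus strand) had 187, 191 and 168 CPM in unpulsed and 214, 185 and 161 CPM in OVA-pulsed CtrV libraries. The EKO-labelled libraries had 287, 296 and 238 CPM without and 304, 278 and 264 CPM with OVA, all above every CtrV library. Its log2 fold change was 0.60 ± 0.06 with OVA, 1.52-fold higher (adjusted p = 2.83e-05), and 0.58 ± 0.06 without (adjusted p = 3.86e-05, edgeR's quasi-likelihood test). It was 0.61 in both comparisons without replicate 1 of the EKO-labelled cells.

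Stat3 (ENSMUSG00000004040; chromosome 11, 100885098 to 100939540, minus strand) had 137, 132 and 132 CPM in unpulsed and 158, 132 and 124 CPM in OVA-pulsed CtrV libraries. It had 224, 173 and 164 CPM in unpulsed and 265, 170 and 199 CPM in OVA-pulsed EKO-labelled libraries. The lines did not overlap, and replicate 1 was the highest library of all 4 groups. The log2 fold change was 0.60 ± 0.09 with OVA, 1.52-fold higher (adjusted p = 0.000435), and 0.46 ± 0.10 without, 1.38-fold higher (adjusted p = 0.0025, edgeR's quasi-likelihood test). Without replicate 1 of the EKO-labelled cells the values were 0.48 and 0.39, and both passed the test. STAT3 is activated by phosphorylation, which the mRNA level does not show.

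Of the feedback inhibitors, Socs3 (ENSMUSG00000053113; chromosome 11, 117966079 to 117970047, minus strand), the inhibitor of gp130 signalling, had 24.1, 21.7 and 28.1 CPM in unpulsed and 29.6, 20.6 and 26.0 CPM in OVA-pulsed CtrV libraries. The EKO-labelled libraries had 76.9, 89.8 and 60.9 CPM without and 96.5, 75.0 and 61.6 CPM with OVA. The lowest EKO-labelled library was above the highest CtrV library. Between the lines the log2 fold change was 1.60 ± 0.18 with OVA, 3.04-fold higher (adjusted p = 3.55e-05), and 1.61 ± 0.18 without, 3.06-fold higher (adjusted p = 3.94e-05, edgeR's quasi-likelihood test). Leaving out replicate 1 of the EKO-labelled cells gave 1.48 and 1.65.

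Socs1 (ENSMUSG00000038037; chromosome 16, 10782240 to 10785536, minus strand), which mainly restrains interferon signalling, showed the smallest of the called differences. It had 22.1, 21.2 and 20.2 CPM in unpulsed and 26.1, 18.6 and 17.8 CPM in OVA-pulsed CtrV libraries, and 28.7, 28.4 and 22.2 CPM in unpulsed and 34.6, 29.1 and 22.02 CPM in OVA-pulsed EKO-labelled libraries. With OVA the lines overlapped, because replicate 3 of the EKO-labelled cells was below replicate 1 of the CtrV cells, yet within each replicate number the EKO-labelled library was the higher one. The log2 fold change was 0.45 ± 0.10 with OVA (adjusted p = 0.00411) and 0.31 ± 0.10 without (adjusted p = 0.0295, edgeR's quasi-likelihood test). Neither call held when the replicate number was left out of the model, with adjusted p = 0.0594 and 0.179. With OVA the call was also lost without replicate 2 of all groups (adjusted p = 0.0682). Without OVA it was lost without replicate 1 (0.133) or 2 (0.085) of the CtrV cells, without replicate 2 (0.135) or 3 (0.0627) of the EKO-labelled cells, without replicate 2 of all groups (0.177), each an adjusted p, and under upper-quartile normalization (adjusted p = 0.059).

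**Figure D2:**
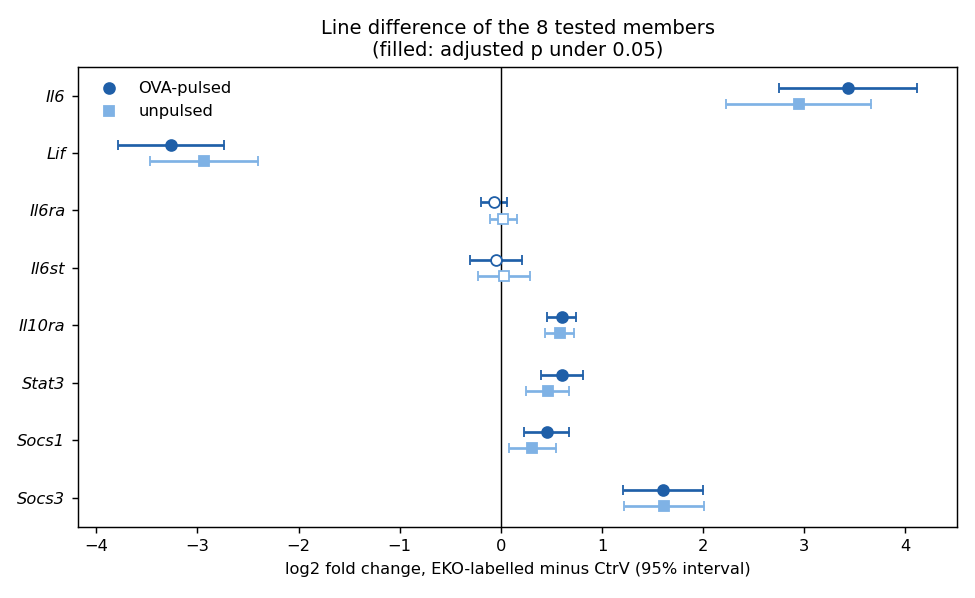
Log2 fold change of EKO-labelled over CtrV cells on the horizontal axis for the 8 tested genes, with circles for OVA-pulsed and squares for unpulsed cells, bars for 95% intervals, and filled symbols for an adjusted p under 0.05 by edgeR's quasi-likelihood test. Il6 at 3.43 and 2.95 and Lif at -3.26 and -2.94 lie far on opposite sides of 0, and the intervals of Il6ra and Il6st include 0.

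The second question was how these mRNAs rank within a line. Levels were compared between genes per kilobase of exon (RPKM, CPM divided by the exon length of the GENCODE gene). Il10ra was the highest of the 10 genes in each of the 4 groups, with 53.4 ± 7.64 RPKM (SD, n = 3) in OVA-pulsed CtrV and 80.6 ± 5.80 RPKM in OVA-pulsed EKO-labelled cells. In OVA-pulsed CtrV cells Stat3 was next with 14.5 ± 1.84 RPKM. Socs3 (8.79 ± 1.56 RPKM), Socs1 (7.17 ± 1.57), Il6st (6.93 ± 2.05) and Il6ra (4.86 ± 0.44) followed, each overlapping the next. Lif (1.12 ± 0.24 RPKM) was above Il6 (0.510 ± 0.29 RPKM), with no overlap between their libraries, and Osm and Il10 were at the bottom. In OVA-pulsed EKO-labelled cells Socs3 (26.9 ± 6.09 RPKM) and Stat3 (22.2 ± 5.14 RPKM) overlapped in second place. Il6 had 5.54 ± 2.47 RPKM there, a level that overlapped those of its receptor genes Il6st (6.67 ± 2.09 RPKM) and Il6ra (4.64 ± 0.34 RPKM), while Lif had 0.114 ± 0.06 RPKM and overlapped Il10 (0.115 ± 0.07 RPKM). The order of Il6 and Lif was thus opposite in the lines, and in unpulsed cells too, with 0.544 and 1.06 RPKM in CtrV and 4.55 and 0.135 RPKM in EKO-labelled cells.

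**Figure D3:**
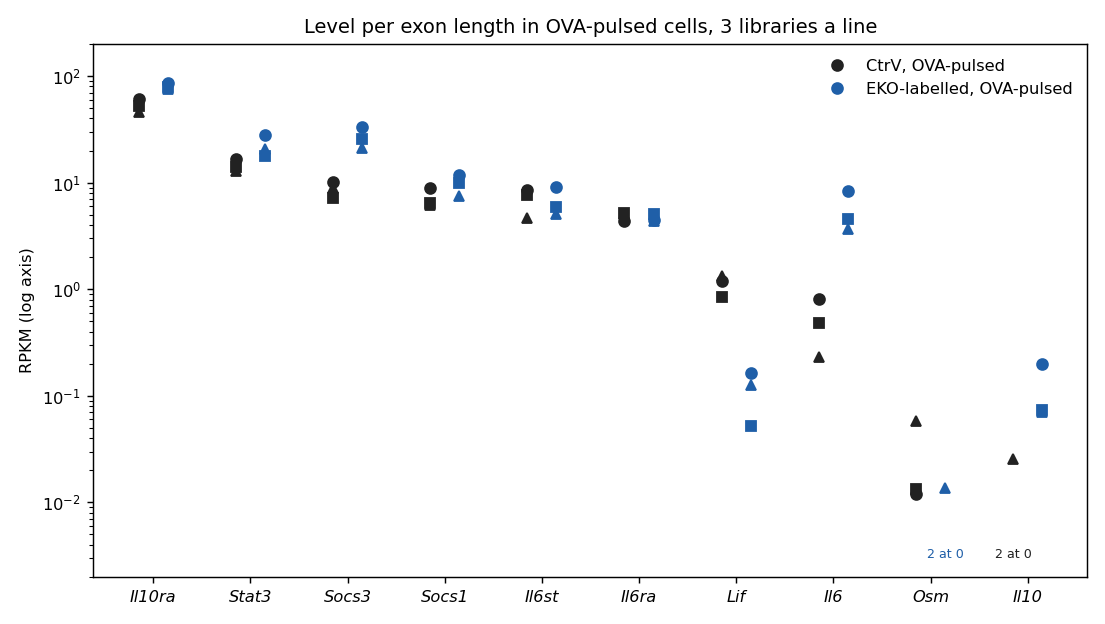
Level per exon length (RPKM, log axis) of the 10 genes in OVA-pulsed cells, ordered by the CtrV mean, with 1 point per library, black for CtrV and blue for EKO-labelled cells, and circles, squares and triangles for replicates 1, 2 and 3; libraries without a count are written as numbers at 0. The receptor, Stat3 and Socs genes lie between 4.36 and 86.9 RPKM in both lines, and Il6 and Lif change places.

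The third question was whether OVA altered the genes, or altered the difference between the lines. No member passed edgeR's quasi-likelihood test between OVA-pulsed and unpulsed cells, averaged over the lines, and the smallest unadjusted p was 0.169, for Stat3. Nor was a dependence of the line difference on pulsing called for any member, with a smallest unadjusted p of 0.317, for Il6ra. These comparisons called 0 of 14079 genes, a background of 0%, in edgeR, DESeq2 and limma voom alike. At an unadjusted p under 0.05 there were 314 and 269 genes by edgeR's quasi-likelihood test, 83 and 103 by DESeq2 and 336 and 297 by limma voom. The OVA effect on Il6 was 0.08 on the log2 scale, with a 95% interval from -0.46 to 0.63, and that on Lif was -0.08 (-0.51 to 0.34). For Il10ra and Stat3 the intervals were narrower, from -0.06 to 0.14 and from -0.05 to 0.25. The dependence of the line difference on pulsing was 0.49 for Il6 (95% interval -0.60 to 1.57), which leaves room for a sizeable change. The fit has no term for replicate number within a line. Deviations of same-numbered OVA-pulsed and unpulsed libraries correlated across genes at 0.351 to 0.706 in EKO-labelled and 0.077 to 0.373 in CtrV cells. These tests may therefore miss effects, and the lack of calls does not show that OVA had none.

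The spread between libraries differed from member to member. In OVA-pulsed EKO-labelled cells the coefficient of variation was 44.7% for Il6 and 49.7% for Lif, and 7.34% for Il6ra and 7.20% for Il10ra. The Lif value rests on 7 to 27 counts per library, so counting error is a larger part of it. Il6 had at least 291 counts there, Il6ra 1238 and Il10ra 8591. Replicate 1 was above the mean of its group in all 4 groups for Il6st, Il10ra, Stat3 and Socs1, and replicate 3 was below it in all 4 groups for the same genes. For Il6st the deviation of replicate 3 was between -0.57 and -0.35 on the log2 scale. For Lif, replicate 3 was above its group mean by 0.26 to 0.36 in all 4 groups.

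**Figure D4:**
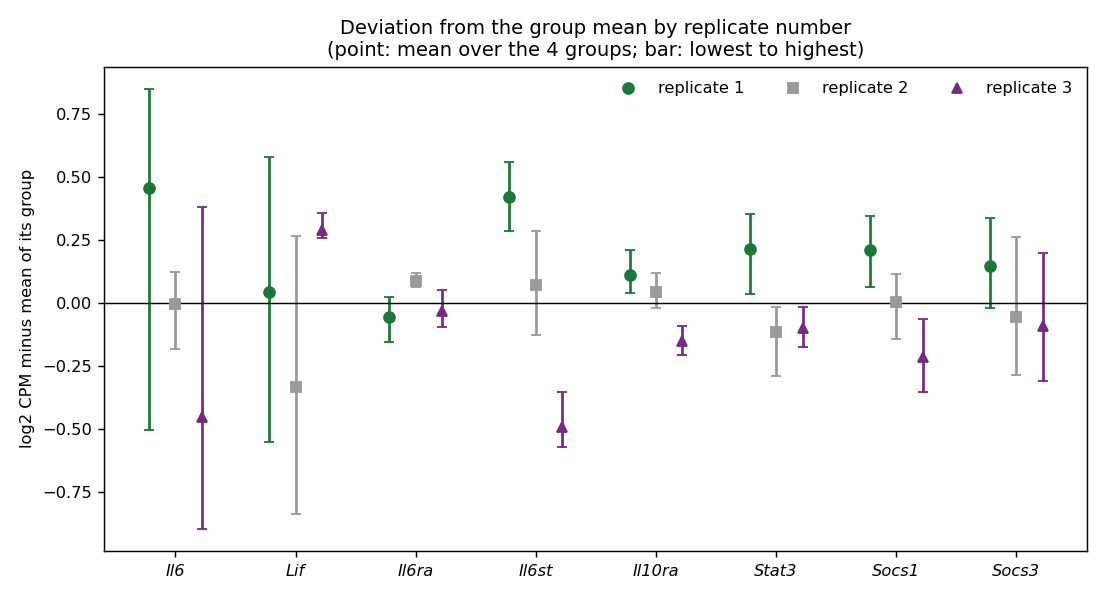
Deviation of log2 CPM from the mean of the library's group (vertical axis) for the 8 tested genes, by replicate number; points are means over the 4 groups and bars run from the lowest to the highest group. Replicate 3 lies below 0 in all groups for Il6st, Il10ra, Stat3 and Socs1 and above 0 for Lif, and Il6 spreads over more than any receptor gene.

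The other genes of the pathway were read by lists. The counts below are to be read against the shares of all tested genes, 25.1% higher and 21.9% lower with OVA and 24.5% and 21.9% without. Of 9 further ligands of the gp130 family, 3 were tested and 1 was higher in OVA-pulsed EKO-labelled cells. This was Ebi3, the subunit shared by IL-27 and IL-35, with 122 to 143 CPM in CtrV and 282 to 329 CPM in EKO-labelled libraries (log2 fold change 1.30 ± 0.06 with OVA, adjusted p = 1.11e-07, edgeR's quasi-likelihood test). Its partner in IL-27, Il27, was not tested because it was low, with 1 to 8 counts in CtrV and 11 to 32 counts in EKO-labelled libraries, and is named here after its values were seen. Of 6 further receptor chains of the family, 2 were tested and both were lower, with and without OVA. Lifr, the LIF receptor, had 85.2, 80.8 and 49.3 CPM in unpulsed and 78.6, 83.8 and 62.0 CPM in OVA-pulsed CtrV libraries. It had 25.0, 20.4 and 15.9 CPM in unpulsed and 20.8, 19.4 and 13.9 CPM in OVA-pulsed EKO-labelled libraries. Lifr thus fell beside its ligand Lif, by 2.06 on the log2 scale with OVA, 4.18-fold (adjusted p = 4.77e-08), and by 1.80 without, 3.48-fold (adjusted p = 1.14e-07, edgeR's quasi-likelihood test). Il31ra, the IL-31 receptor, fell less, by 0.37 with OVA (adjusted p = 0.000209). Osmr, the oncostatin M receptor, had 0 counts in all 12 libraries, which allows a level of up to 0.0785 to 0.110 CPM.

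Of 9 other genes of the IL-10 family, 3 were tested, 2 were higher with OVA and 1 without. The second IL-10 receptor chain, Il10rb, rose with Il10ra, by a log2 fold change of 0.35 ± 0.05 with OVA (adjusted p = 0.000336) and 0.39 ± 0.05 without (adjusted p = 0.000203, edgeR's quasi-likelihood test). Il22, which encodes a cytokine that acts on epithelia, was higher with OVA (1.22 ± 0.33, adjusted p = 0.0114) and had a value of 0.41 without, which did not pass (adjusted p = 0.365). Without replicate 1 of the EKO-labelled cells these values were 1.05 and -0.23, with the call with OVA kept. The dependence on pulsing did not pass the test for any gene.

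Of the 4 Janus kinases, Jak3 and Tyk2 were higher in both comparisons and Jak1 and Jak2 passed in neither. With OVA the log2 fold change was 0.47 ± 0.09 for Jak3 and 0.24 ± 0.07 for Tyk2, which serves the IL-10 receptor. Of the 6 other STAT genes, 5 were higher with OVA and 4 without, and none was lower, against 25.1% and 24.5% of all tested genes higher. Stat4 (1.98 ± 0.46 with OVA, adjusted p = 0.00468) and Stat5a (1.23 ± 0.32, adjusted p = 0.00909, edgeR's quasi-likelihood test) showed the largest values there, but did not pass without OVA (0.61 and 0.64). Stat4 had 48.3 and 59.3 CPM in replicate 1 of the EKO-labelled cells and 10.6 to 39.6 CPM in the others. Without that replicate the values of Stat4 were 1.61 with OVA and -0.11 without, those of Stat5a 1.05 and 0.44, and 3 of the 6 STAT genes were higher without OVA. Stat2, which carries the type I interferon signal, was higher in both comparisons, by 0.93 with OVA and by 1.11 without.

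Of the 6 other SOCS genes, 2 were higher with OVA and 3 without, and none was lower, against 25.1% and 24.5% of all tested genes higher and 21.9% lower in each. Without replicate 1 of the EKO-labelled cells, 2 were higher and 2 lower in each comparison. Cish, the feedback inhibitor of STAT5, had 47.2 to 61.4 CPM in CtrV and 83.1 to 121 CPM in EKO-labelled libraries (log2 fold change 0.97 ± 0.10 with OVA, adjusted p = 2.45e-05, edgeR's quasi-likelihood test). Socs7 rose by 0.35 ± 0.08. Socs3, with 1.60, had a larger value than any of them.

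Known STAT3 targets were read next. Of 22, 17 were tested, and 12 were higher and 3 lower with OVA, against 25.1% and 21.9% of all tested genes; without OVA 10 were higher and 4 lower, against 24.5% and 21.9%. Their median log2 fold change was 0.51 with OVA and 0.36 without. Lcn2, the iron-binding acute-phase protein lipocalin, had 0.0663 to 0.865 CPM in CtrV and 3.38 to 9.60 CPM in EKO-labelled libraries (log2 fold change 3.74 ± 0.38 with OVA, adjusted p = 1.89e-05). Lcn2 passed the filter on low counts through EKO-labelled libraries alone, so only a rise could be called for this gene. Replicate 1 of the EKO-labelled cells had 9.60 CPM with OVA, against 3.38 and 3.84 CPM in the others, and without it the log2 fold change was 3.46 ± 0.50 (adjusted p = 0.000374, edgeR's quasi-likelihood test). Bcl2l1, a survival gene, rose by 1.40 ± 0.10 (adjusted p = 1.79e-06, edgeR's quasi-likelihood test). In the other direction, Birc5, which encodes survivin and marks dividing cells, fell by 0.77 on the log2 scale with OVA and by 0.63 without, and the kinase gene Pim3 fell by 0.41 and 0.53. Many of these genes are also targets of NF-kB or other STAT factors.

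Of 13 genes known to respond to IL-10 in myeloid cells, 12 were tested, and 8 were higher and 3 lower in each of the comparisons between lines, against 25.1% and 21.9% of all tested genes with OVA and 24.5% and 21.9% without. Their median log2 fold change was 0.79 with OVA and 0.67 without. Il1rn, which encodes the IL-1 receptor antagonist, had 0.365 to 1.13 CPM in CtrV and 7.89 to 18.5 CPM in EKO-labelled libraries (log2 fold change 4.05 ± 0.22 with OVA, adjusted p = 2.19e-07, edgeR's quasi-likelihood test). Fcgr1, an Fc receptor gene that is also among the macrophage markers, rose by 1.13 ± 0.18. Il4ra and Il21r, both cytokine receptor genes, fell by 0.97 and 0.87 with OVA and by 1.05 and 0.94 without. The list therefore moved in both directions, and it shares Bcl3 with the STAT3 targets and Zfp36 with the list that follows. Il10 itself had at most 10 counts in a library, and a part of IL-10 in these differences was not tested.

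Of 8 genes that control the Il6 or Il10 transcript, 7 were higher with OVA and 6 without, and none was lower, against 25.1% and 24.5% of all tested genes higher. The list mixes genes that raise these transcripts with genes that restrain them, so its counts give no common direction. Among those that restrain them, Zc3h12a had 51.6 to 62.3 CPM in CtrV and 111 to 131 CPM in EKO-labelled libraries. Zfp36 had 30.4 to 44.1 CPM and 47.3 to 71.8 CPM. Nfkbiz encodes a nuclear IkB protein needed for Il6 induction by LPS. It had 100.006 to 142 CPM in CtrV and 434 to 556 CPM in EKO-labelled libraries (log2 fold change 2.24 ± 0.13 with OVA, adjusted p = 3.97e-07, edgeR's quasi-likelihood test). Maf, a factor that drives Il10, was low in both lines, with 0.176 to 0.430 CPM in CtrV and 0.429 to 2.38 CPM in EKO-labelled libraries, and rose by 2.35 ± 0.43 with OVA (adjusted p = 0.00118). Maf passed the filter on low counts through EKO-labelled libraries alone, so only a rise could be called. The EKO-labelled libraries with OVA had 2.38, 0.772 and 0.984 CPM, with replicate 1 the highest, and without that replicate Maf did not pass the filter on low counts and had no test. Of the 7 genes then tested, 6 were higher with OVA and 5 without.

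**Figure D5:**
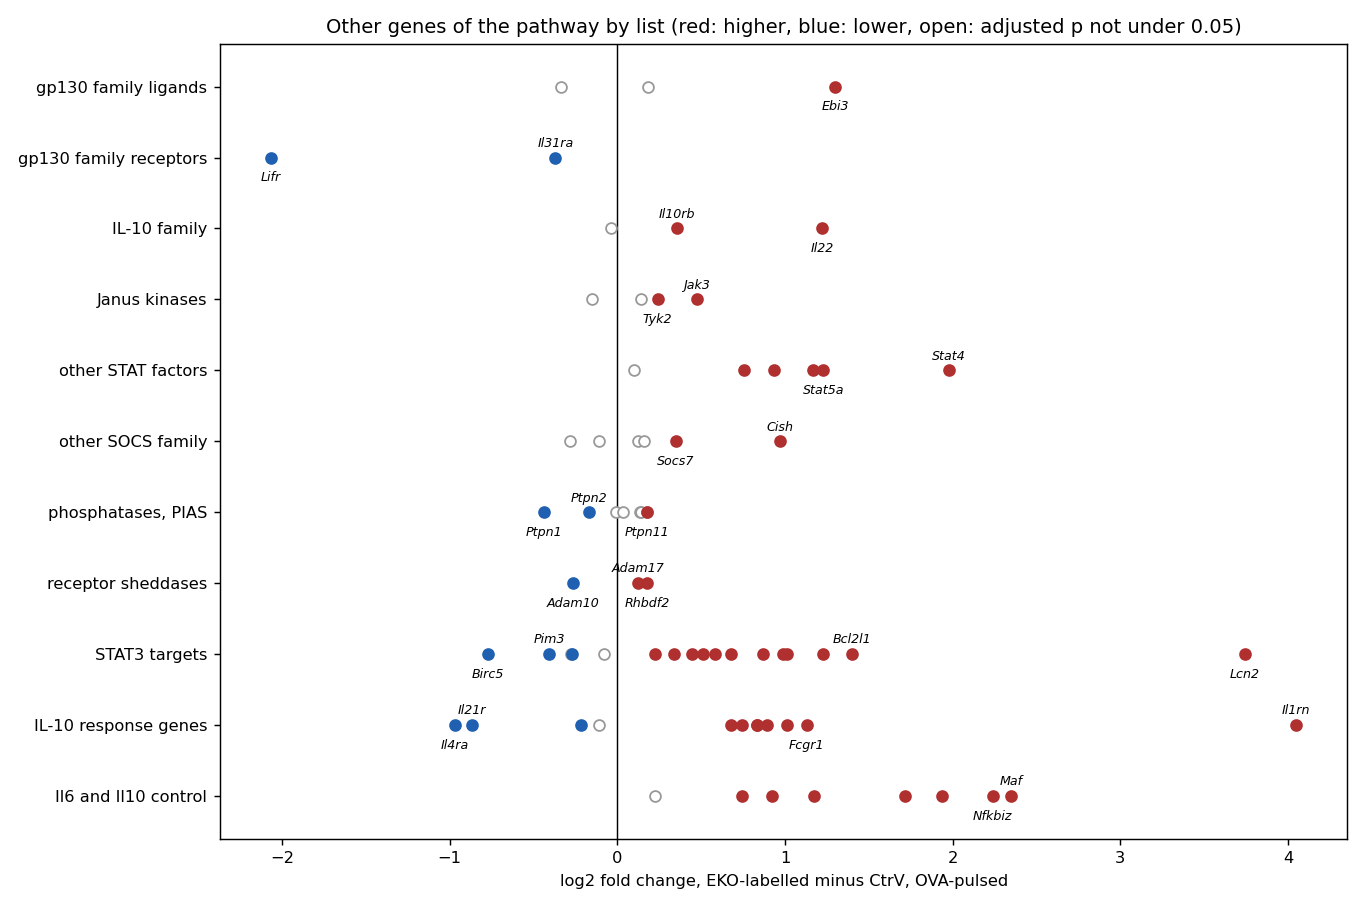
Log2 fold change of EKO-labelled over CtrV cells, OVA-pulsed, on the horizontal axis for every tested gene of the 11 pathway lists, 1 row per list; red points are higher and blue points lower at an adjusted p under 0.05, open points did not pass, and named genes are the largest rises and falls of a list. Lifr at -2.06 is the lowest value, Il1rn at 4.05 and Lcn2 at 3.74 the highest, and no STAT or SOCS gene passed as lower.

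The genes whose profile over the 12 libraries was most like that of a member were found by the root mean square (RMS) difference of log2 CPM, each gene centred on its own mean. For Il6 these were Tnfsf15 (RMS 0.341), Ccl5 (0.353) and Pi16 (0.366), where the median over all genes was 1.69. Pi16 had 0.0332 to 0.137 CPM in CtrV libraries, near the detection limit, where the prior count of 2 used for log2 CPM weighs on the profile. Ccl5, a chemokine gene, had 41.2 to 131 CPM in CtrV and 384 to 1160.1 CPM in EKO-labelled libraries. For Lif they were the gene model Gm42793 (RMS 0.410), Rab34 (0.410) and the gene model Gm35040 (0.437), against a median of 1.59. Gm35040 was likewise near the limit in EKO-labelled libraries, with 0.0367 to 0.132 CPM. For Socs3 they were F11r (RMS 0.162), Tnfsf9 (0.183) and Qsox1 (0.191), against a median of 0.844. Tnfsf9, the 4-1BB ligand, had 11.8 to 16.5 CPM in CtrV and 33.4 to 50.4 CPM in EKO-labelled libraries. Since the profiles are dominated by the difference between the lines, many genes that differ in the same way share them. The medians are close to the RMS of the profiles of Il6, Lif and Socs3 themselves, 1.69, 1.58 and 0.833. A value far below a median therefore shows little beyond a line difference in the same direction. Il10 was too low for this measure.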

How the data were processed

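RNA of Sp37A3 cells was sequenced from 12 stranded mRNA libraries, 3 in each of 4 groups. The authors deposited raw counts per gene in 1 table. Per the methods, reads were aligned to mm10 with STAR, a single location was kept for reads that fitted several places equally well, and featureCounts assigned read ends to merged exons of Ensembl genes. SAMtools was also used. Whether counting used the strand is not stated, so genes that overlap on opposite strands may share counts. Symbols for 55141 of the 55401 identifiers, positions and exon lengths came from the GENCODE annotation of GRCm38, which is not the annotation used for counting. Doses are not given in the sample labels and are not reported.

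Of the genes, 28881 had a count, and the test was run on the 14079 whose log2 CPM exceeded 0 in 2 or more libraries. Counts were scaled by TMM and tested with edgeR 4.0.16 in R 4.3.3 (quasi-likelihood test, all 12 libraries fitted together, group and replicate number as covariates, Benjamini-Hochberg adjustment over all tested genes, adjusted p under 0.05, no fold limit, since the limits are blank in the methods). The common dispersion was 0.00590. The replicate number is a covariate in the study's methods. Deviations of same-numbered libraries of the lines had correlations across genes of 0.448, 0.292 and 0.289 with OVA for replicates 1, 2 and 3. Without OVA these were 0.060, -0.012 and 0.263. Same-numbered libraries of the lines thus deviated alike with OVA, and without OVA only for replicate 3. Differently numbered libraries were not compared, so pairing by replicate number was not tested. Between OVA-pulsed and unpulsed libraries of 1 line, they were 0.706, 0.351 and 0.411 in EKO-labelled and 0.077, 0.179 and 0.373 in CtrV cells. The 2 comparisons between the lines should therefore not be counted as independent. Alternatives were DESeq2 1.42.0, voom of limma 3.58.1, RLE and upper-quartile normalization, bias-adjusted deviances, no filter, at least 10 counts in every library, no replicate block, adjusted p under 0.01, fits on only the 6 libraries of a comparison, and fits without each library or replicate number. The fit without EKO replicate 1 was added after the data were seen. Steps were tested on simulated counts with few changed genes in a single group, no replicate effect and no outlying library. Error rates under the wider spread and many called genes seen here were not tested. The lowest difference between replicates of a group was a chi-square of 4.86 per degree of freedom, so no library was a copy of another.

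The members and gene lists were chosen with earlier results of these data known. Named besides the 10 members and Siglece were, per list, the 2 largest rises and falls with OVA among called genes, and the 3 genes nearest in profile to Il6, Lif and Socs3. Il27, Stat2, Jak1, Jak2, Osmr, Ighm, Klre1, Zc3h12a and Zfp36 were named after their values were seen.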

Additional observations from a re-analysis of the deposited data

How the results depend on the processing

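In the comparisons between the lines, 377 of 398 values of the tested members under an alternative kept their direction and their side of the threshold, and 21 did not. Il6, Lif, Il10ra, Stat3 and Socs3 kept direction and call in every fit run on them, and only Socs1 lost its call, as given beside its values. The replicate block changed no other call: without it Socs1 was 0.45 with OVA (adjusted p = 0.0594) and 0.32 without (adjusted p = 0.179), leaving 4 members higher and 1 lower in each comparison, and all genes called fell from 6619 to 5413 and from 6537 to 5337. With at least 10 counts required in every library, 0 members were lower in each comparison, since Lif, with 7 counts in 1 library, was then not tested; without a filter 6 were higher with OVA, with Il10 added. Upper-quartile normalization turned 4 uncalled values, to -0.0279 for Il6ra and -0.0187 for Il6st between unpulsed lines, -0.0123 for the OVA effect on Il6ra and 0.00418 for the dependence of Socs3. Leaving out libraries turned uncalled values near 0. Between the lines, Il6st ran from -0.14 to 0.0898 with OVA and from -0.12 to 0.19 without, and Il6ra from -0.0182 to 0.0738 without. The OVA effect ran from -0.24 to 0.35 for Il6, from -0.40 to 0.15 for Lif, from -0.0258 to 0.0492 for Il6ra, from -0.0130 to 0.0910 for Il10ra, from -0.0874 to 0.0921 for Socs1 and from -0.12 to 0.14 for Socs3. The dependence on pulsing ran from -0.24 to 1.25 for Il6, from -0.91 to 0.16 for Lif, from -0.17 to 0.00793 for Il6ra, from -0.24 to 0.0411 for Il6st, from -0.0801 to 0.0875 for Il10ra and from -0.23 to 0.22 for Socs3. Without replicate 1 of all groups, 5 genes, none of them members, were called for that dependence. The Il10 ratio ran from 9.46 to 18.8 with OVA and from 6.95 to 13.6 without, and could not be formed without replicate 3 of the CtrV cells, which held their only count. The cause of these changes was not tested. Depth limits Osm and Il10.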

Other observations

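Of 8 phosphatase and PIAS genes, 1 was higher and 2 were lower in OVA-pulsed EKO-labelled cells, and 2 were higher and 2 lower in unpulsed cells, against 25.1% higher and 21.9% lower of all tested genes with OVA and 24.5% and 21.9% without. Ptpn1, which encodes a phosphatase of JAK2 and TYK2, had 160.1 to 170 CPM in CtrV and 104 to 138 CPM in EKO-labelled libraries, and fell by 0.44 on the log2 scale with OVA (adjusted p = 0.000367) and by 0.53 without (adjusted p = 0.000106, edgeR's quasi-likelihood test). Ptpn2, a phosphatase of JAK1 and STAT proteins, fell by 0.17 with OVA and by 0.18 without. Ptpn11, which encodes SHP2, a phosphatase recruited by gp130, rose by 0.18 with OVA and 0.19 without. Without replicate 1 of the EKO-labelled cells the calls of Ptpn11 in both comparisons and that of Ptpn2 with OVA were lost (adjusted p = 0.0776, 0.0843 and 0.0794, edgeR's quasi-likelihood test).

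All 3 genes for shedding of receptors such as the IL-6 receptor passed with OVA, where 47% of all tested genes passed. Adam10, a protease gene, fell by 0.26 (adjusted p = 0.00577), while Adam17, the main protease of the IL-6 receptor, rose by 0.12 (adjusted p = 0.0446) and its partner Rhbdf2 by 0.18 (adjusted p = 0.0144, edgeR's quasi-likelihood test). Without OVA, where 46.4% of all tested genes passed, Adam17 alone passed, with 0.16. Rhbdf2 passed as well (0.16, adjusted p = 0.0368, edgeR's quasi-likelihood test) when replicate 1 of the EKO-labelled cells was left out.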
